A study of Mus musculus with 23 samples.

Results

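RAS deletion was examined in mouse embryonic stem cells with wild type ERF that had been moved for 48 h into FA, a differentiation medium named for FGF2 and Activin A. The comparison sets the 3 libraries labelled RAS deleted in FA against the 2 libraries labelled RAS present in FA, which makes 5 of the 23 libraries of the series. All of these cells have the Raslox/lox background: they lack H-Ras and N-Ras (H-Ras-/-;N-Ras-/-), carry a floxed allele of the remaining RAS gene, and express the tamoxifen-dependent recombinase CreERT2 from the Ubiq driver. The RAS-deleted cells had been treated with 4-hydroxytamoxifen (OHT) for 6 days, so that an effect of OHT and one of the deletion cannot be told apart. FA held FGF2 at 12 ng/ml, Activin A at 20 ng/ml and knockout serum replacement in N2B27 medium, on fibronectin. The starting medium, 2iL, held the MEK inhibitor PD0325901, the GSK3 inhibitor CHIR99021 and LIF. The RAS-present and RAS-deleted cells in 2iL with ERF wild type (3 libraries each), and the FA cells of both RAS states labelled ERF knockout (3 libraries each), are used only to show where the FA response differs. The labels name no separate clones or cultures for the replicates, so p-values measure the spread between these libraries.

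RAS proteins are small GTPases that pass growth factor signals, among them those of FGF receptors, through RAF and MEK to the kinase ERK. ERK raises transcription of its own inhibitors, such as the Sprouty and Spred proteins and the dual-specificity phosphatases, and of ETS factors of the PEA3 family. In mouse embryonic stem cells kept with a MEK inhibitor the naive state is held. FGF and ERK signaling in FA lets the cells leave that state and take on the formative program of the early post-implantation epiblast, and ERF is an ETS repressor that ERK inactivates. The comparison asks how far cells respond to FA when the signal from RAS is missing.

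The 5 libraries held 22 to 26.2 M counts. Total RNA had been depleted of ribosomal RNA, and levels are given in CPM, the counts scaled to the TMM-adjusted size of the library, in the order replicate 1, 2 and, for RAS-deleted cells, 3. Transcripts of H-Ras and N-Ras were still counted in every library, at 25.2 and 25.6 CPM and 26.3 and 26.4 CPM with RAS present and 18.97, 19.9 and 19.1 CPM and 45.7, 43.4 and 40.3 CPM with RAS deleted, so these gene totals do not check the knockouts. Erf was counted at 69.8 and 56.5 CPM with RAS present and 74.5, 66.8 and 67.9 CPM with RAS deleted. In the FA libraries labelled ERF knockout with RAS present its level was 57.5 ± 7.06 CPM (SD, n = 3), which overlapped the levels with ERF wild type and RAS present. The pluripotency markers Pou5f1 and Sall4 were high in all 5 libraries, while 3 of 8 general pluripotency factors, Utf1, Lin28a and Tdgf1, were lower without RAS, as given below. Pou5f1, the core pluripotency factor, was at 367 and 399 CPM with RAS present and 514, 395 and 396 CPM with RAS deleted, with overlapping groups, and Sall4 was at 240.2 and 244 CPM with RAS present and 401, 459.5 and 533 CPM with RAS deleted. The epithelial marker Epcam was counted in all 5 as well and was lower without RAS, as given with the epithelial genes.

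Certain libraries stood apart. Replicate 1 of both groups carried more RNA from chromosome 8: the median gene of that chromosome was 0.14 above its group mean on the log2 scale in the RAS-present library and 0.22 above it in the RAS-deleted library, while the medians of the other chromosomes in the 5 libraries lay between -0.08 and 0.08. The replicate 1 libraries of both 2iL groups showed the same, at 0.22 and 0.20. Calls that were lost without these 4 libraries are named where they occur or counted among the lost calls at the end. Leaving these libraries out keeps 1 RAS-present library in FA, so such a loss cannot be told apart from the effect of a smaller group. Chromosome 8 holds 873 of the tested genes, among them Dusp4, Klf2, Sox1, Mt2, Fgfr1, Ccdc194, Junb, Zfp42, Cdh1 and Bst2, which are named below. Of the 873, 158 were called, or 18.1%, and the median log2 change of all 873 was -0.197, the lowest of any chromosome. The library medians above rest on the 568 of them with a mean above 5 CPM. The raised level was that of 1 of the 2 RAS-present and 1 of the 3 RAS-deleted libraries. The RAS-deleted libraries also differed among themselves, and the 2 RAS-present libraries differed in the stress and endoderm genes; both are described with the genes they touch.

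Of 20372 genes tested, 1820 were higher and 1698 lower with RAS deleted where both the adjusted p (under 0.05) and the size of the change (2-fold or more) had to pass. That is 17.3% of the genes tested, 8.93% higher and 8.33% lower, and genes that meet both conditions are said to have risen or fallen below. The median change over all tested genes was 0.00. The 2 groups did not overlap for 53.1% of the genes tested, so that a lack of overlap is common and is given below only as a description. As RNA was taken from whole cultures, fewer cells of a type and less RNA per cell cannot be told apart.

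The 12 largest rises were taken among calls with no overlap between the groups and a mean of 5 CPM or more in the higher one. They included Prdm14, of the list of naive factors used below, some membrane proteins and members of multigene families. Shared themes among them were not tested. Cdhr1, a cadherin-related membrane protein, stood at 0.54 and 0.473 CPM with RAS present and 91.6, 68.7 and 65.8 CPM with RAS deleted (log2 change 7.19 ± 0.37 (SE), adjusted p = 6.87e-12). Prdm14, a repressor that holds the naive state, was close to silent with RAS present: it stood at 0.791 and 0.616 CPM with RAS present and 35.8, 24.8 and 22.1 CPM with RAS deleted (log2 change 5.26 ± 0.30 (SE), adjusted p = 2.06e-11). The rule that named these genes required groups without overlap. Jam2, a junction protein, was at 1.69 and 1.37 CPM with RAS present and 130.4, 88.5 and 82.8 CPM with RAS deleted (log2 change 6.01 ± 0.24 (SE), adjusted p = 3.54e-13). Aqp3, a water and glycerol channel, was at 1.26 and 1.04 CPM with RAS present and 184, 63.8 and 48.8 CPM with RAS deleted, highest in replicate 1 of the RAS-deleted cells (log2 change 6.40 ± 0.60 (SE), adjusted p = 3.64e-07). Ly6a, known as Sca-1, varied more, at 0.108 and 0.142 CPM with RAS present and 28.7, 11.9 and 4.64 CPM with RAS deleted (log2 change 6.87 ± 0.93 (SE), adjusted p = 1.81e-05). The others were Slc26a9, Lrrc15, Fat2, Aspa, Pramef17, Pramel6 and Lax1, with changes from 5.17 to 6.61 apart from Lax1. Lax1 had 2 counts in all with RAS present, a ratio of 137 (95% interval 38.0 to 1130, counting error only). Pramef17 and Pramel6 belong to families of near-identical copies, between which reads may be split.

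The 12 largest falls were led by Cubn, the endocytic receptor cubilin of visceral endoderm, at 339.9 and 157 CPM with RAS present and 0.526, 0.486 and 0.431 CPM with RAS deleted (log2 change -9.01 ± 0.51 (SE), adjusted p = 6.44e-10). Has2, the hyaluronan synthase, fell from 21.4 and 12.6 CPM to 0.0438, 0 and 0.18 CPM (log2 change -7.65 ± 0.44 (SE), adjusted p = 5.89e-12). Spry4, a feedback inhibitor of the pathway, was at 38.3 and 25.6 CPM with RAS present and 0.0876, 0.527 and 0.395 CPM with RAS deleted (log2 change -6.52 ± 0.29 (SE), adjusted p = 9.99e-14). In each of these all RAS-deleted libraries lay far below both RAS-present libraries. Lhx1, a factor of the anterior endoderm and mesoderm, was at 11.7 and 7.15 CPM with RAS present and 0.0438, 0 and 0.108 CPM with RAS deleted (log2 change -7.33 ± 0.55 (SE), adjusted p = 2.81e-09). Hoxb1 was at 10.6 and 10.1 CPM with RAS present and 0, 0.162 and 0.467 CPM with RAS deleted (log2 change -5.50 ± 0.45 (SE), adjusted p = 1.38e-08). Epha1, an ephrin receptor, was at 11.8 and 12.03 CPM with RAS present and 0.219, 0.203 and 0.216 CPM with RAS deleted (log2 change -5.77 ± 0.25 (SE), adjusted p = 6.9e-14). Further falls were those of Col6a5, Gbp2, Alox15 and Ccdc194, with changes from -5.87 to -5.10 apart from Ccdc194. Ccdc194 had 3 counts in all with RAS deleted, a ratio of 205 (70.1 to 993).

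By the size of the change in TPM, a level that is corrected for transcript length and can be compared between genes, the largest rise was in Gpx4, the glutathione peroxidase that reduces lipid peroxides. It went from a mean of 130.2 TPM in RAS-present to 749.9 TPM in RAS-deleted libraries, and its counts were 85.4 and 126 CPM with RAS present and 492, 587 and 519.6 CPM with RAS deleted (log2 change 2.34 ± 0.15 (SE), adjusted p = 9.83e-11). In 2iL with RAS present it averaged 260.1 CPM. Hspb1 (147 to 568 mean TPM), Gsta4 (186 to 414) and Prdx6 (146 to 357), a small heat shock protein and enzymes of glutathione and peroxide metabolism, were next to it in this ranking with Ifitm1 (14.4 to 236), Zfp42 (17.6 to 237), Nanog (45.7 to 232), Calcoco2 (4.46 to 172), Ifitm3 (24.6 to 178) and Spp1 (28.2 to 180). Of these, Calcoco2, a receptor of selective autophagy, changed most as a ratio, at 6.84 and 6.72 CPM with RAS present and 326, 189.9 and 188 CPM with RAS deleted (log2 change 5.11 ± 0.35 (SE), adjusted p = 4.97e-09). Rises of Gsta4 and Prdx6 were close to 2-fold (1.01 and 1.10). The call of Gsta4 was lost without RAS-present replicate 1 or RAS-deleted replicate 3, and that of Prdx6 without RAS-deleted replicate 3.

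Peg10, an imprinted gene derived from a retrotransposon, had the largest fall in counts of the 10 genes that lost most TPM, at 1714 and 1531 CPM with RAS present and 110.2, 115 and 121 CPM with RAS deleted (log2 change -3.82 ± 0.18 (SE), adjusted p = 5.68e-12). Rian, an imprinted long non-coding RNA, was at 624 and 575 CPM with RAS present and 199.7, 277 and 339 CPM with RAS deleted (log2 change -1.14 ± 0.14 (SE), adjusted p = 2.07e-06), lowest in RAS-deleted replicate 1, without which its call was lost. Mt2, a metallothionein, was at 133 and 169 CPM with RAS present and 42.6, 63.4 and 66.4 CPM with RAS deleted (log2 change -1.39 ± 0.15 (SE), adjusted p = 2.93e-07). Mkrn1, a ubiquitin ligase, was at 476 and 584 CPM with RAS present and 174, 176 and 174 CPM with RAS deleted (log2 change -1.60 ± 0.10 (SE), adjusted p = 9.75e-12). The others were Mdk (-1.02), the histone genes Hist1h3i (-1.06), Hist1h3e (-1.15) and Hist1h2bg (-1.17), and the short RNAs Mir1949 (-1.19) and Snora43 (-1.02). The calls of Mdk, Hist1h3i and Snora43 were lost when certain single libraries were left out, for Mdk and Snora43 among them RAS-present replicate 2. Histone genes exist in near-identical copies, and the TPM of short RNAs rests on few counts, 442 in all for Mir1949 and 399 for Snora43 with RAS present.

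Several feedback inhibitors of the ERK pathway fell. Of the 6 tested Sprouty and Spred genes, 4 fell and none rose (median log2 change -2.43), against 8.33% of all tested genes lower. Spry2 was at 64.9 and 60.5 CPM with RAS present and 2.94, 3.44 and 5.14 CPM with RAS deleted (log2 change -4.01 ± 0.17 (SE), adjusted p = 2.46e-13). Spred1, which brings the RAS-inactivating protein neurofibromin to the membrane, was at 95.5 and 83.5 CPM with RAS present and 11.3, 12.4 and 11.3 CPM with RAS deleted (log2 change -2.94 ± 0.10 (SE), adjusted p = 7.54e-16), and its 3 RAS-deleted libraries differed little. Spred3 was at 17.7 and 18.9 CPM with RAS present and 3.42, 5.35 and 5.68 CPM with RAS deleted (log2 change -1.92 ± 0.20 (SE), adjusted p = 6.13e-08). The groups lay apart for these genes, as for 53.1% of all tested genes. Spry1 was at 14.5 and 16.9 CPM with RAS present and 6.44, 8.39 and 8.84 CPM with RAS deleted, with an adjusted p of 2.08e-05 but a change of -0.99, just under 2-fold. Spred2 had a log2 change of -0.36 (adjusted p = 0.00486). The letters CCGGAA, a core that many ETS factors bind, were looked for after the values were seen, on both strands from 250 bases before to 50 bases after the start site in the RefSeq table of build GRCm38.p6. They were found in 1 of 5 Sprouty and Spred promoters (20%, that of Spry2) and in those of 4503 of the 27025 gene symbols of the table (16.7%). In the other lists searched they were found in 0 of 2 PEA3 genes, 1 of 9 phosphatases (11.1%), 1 of 8 immediate early genes (12.5%) and 5 of 17 genes of the stress response (29.4%).

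**Figure D1:**
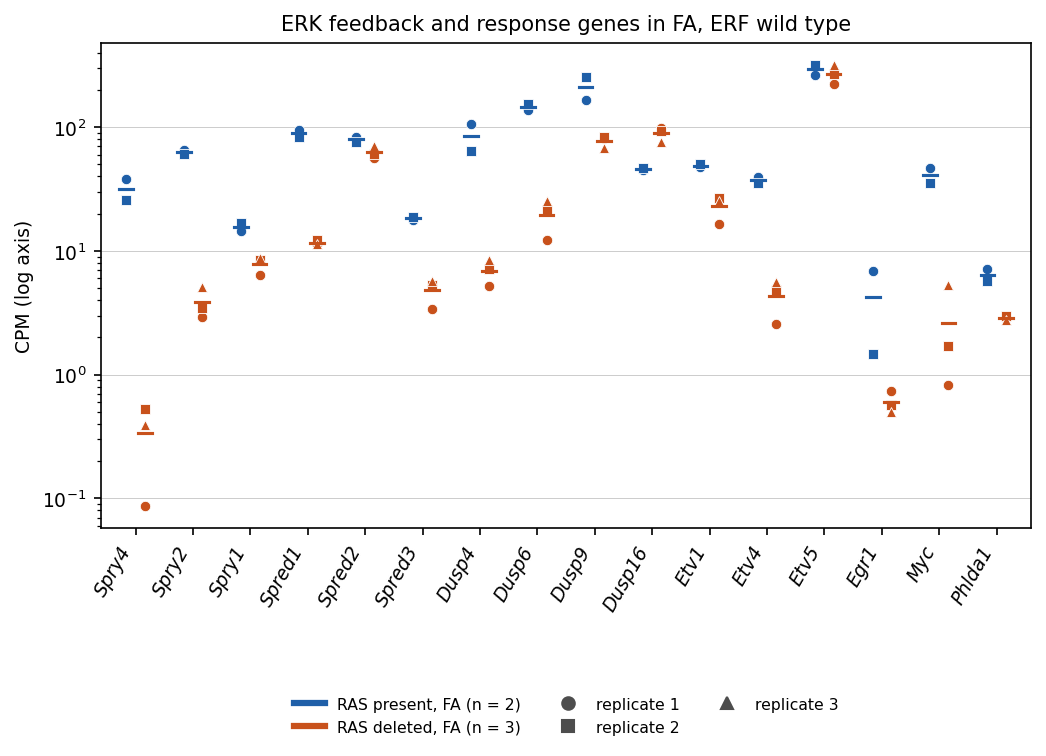
Levels (CPM, log axis) of ERK feedback and response genes in the 2 RAS-present and 3 RAS-deleted libraries in FA; points are libraries, shaped by replicate, and short lines are group means. Spry4, Spry2, Spred1, Dusp4, Dusp6, Etv4 and Myc separate the groups widely, whereas the groups overlap for Etv5.

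Among 11 MAP kinase phosphatases, 3 fell and 1 rose, a share called of 36.4% beside 17.3% of all tested genes. Dusp6, which removes the activating phosphates from ERK in the cytoplasm, was at 138 and 155 CPM with RAS present and 12.3, 21.3 and 25.4 CPM with RAS deleted (log2 change -2.89 ± 0.22 (SE), adjusted p = 5.51e-09). Dusp4, a nuclear phosphatase, was at 107 and 64.3 CPM with RAS present and 5.17, 7.13 and 8.41 CPM with RAS deleted (log2 change -3.62 ± 0.37 (SE), adjusted p = 7.45e-07). Dusp9 was at 166 and 253 CPM with RAS present and 81.2, 82.7 and 68.5 CPM with RAS deleted (log2 change -1.44 ± 0.12 (SE), adjusted p = 4.65e-09). The members of the family did not move together: Dusp16, a phosphatase of JNK and p38, was higher at 44.8 and 46.8 CPM with RAS present and 98.9, 92.3 and 75.7 CPM with RAS deleted but under 2-fold (0.96, adjusted p = 4.97e-07), Dusp8 rose from 0.576 and 1.75 CPM to 3.37, 3.28 and 3.16 CPM (1.53, adjusted p = 0.00872), and Dusp5 was at 11.2 and 12.7 CPM with RAS present and 8.28, 10.8 and 11.9 CPM with RAS deleted, with overlapping groups. The call of Dusp8 was lost without RAS-present replicate 1.

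The PEA3 family split as well. Etv4 fell, at 39.6 and 35.5 CPM with RAS present and 2.58, 4.82 and 5.64 CPM with RAS deleted (log2 change -3.09 ± 0.21 (SE), adjusted p = 2.9e-10). Etv1 was at 47.4 and 50.05 CPM with RAS present and 16.6, 26.6 and 25.4 CPM with RAS deleted (log2 change -1.09 ± 0.32 (SE), adjusted p = 0.0111), a call that was lost without RAS-deleted replicate 1 or RAS-present replicate 2. Etv5, which encodes the closest relative of Etv4, was at 265 and 320.3 CPM with RAS present and 225, 271 and 316 CPM with RAS deleted, with overlapping groups and a log2 change of -0.11 ± 0.12 (SE, adjusted p = 0.488). Per transcript length it was more abundant than Etv4 in RAS-deleted cells, at 57.5, 79.4 and 96.1 TPM against 2.33, 3.73 and 5.6 TPM for Etv4. Of 12 tested immediate early genes, Myc, Egr1 and Phlda1 fell and none rose, a share called of 25% beside 17.3% of all tested genes. Myc was at 46.5 and 35.5 CPM with RAS present and 0.833, 1.702 and 5.32 CPM with RAS deleted (log2 change -3.93 ± 0.40 (SE), adjusted p = 4.17e-07). Egr1 was at 6.94 and 1.47 CPM with RAS present and 0.745, 0.567 and 0.503 CPM with RAS deleted, so that the RAS-present libraries themselves differed strongly (log2 change -2.82 ± 0.47 (SE), adjusted p = 5.91e-05). Phlda1 was at 7.12 and 5.73 CPM with RAS present and 2.89, 2.999 and 2.77 CPM with RAS deleted (log2 change -1.16 ± 0.19 (SE), adjusted p = 3.44e-05), and its call was lost without RAS-present replicate 1. Fos and Junb overlapped between the groups.

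Genes that encode the pathway itself come next. Of 30 genes from RAS-related GTPases to ERK, Mras and Ksr1 rose and Braf fell, which is 10% beside 17.3% of all tested genes. Braf, a RAF kinase, was at 184 and 177 CPM with RAS present and 65.9, 83.5 and 85.5 CPM with RAS deleted (log2 change -1.21 ± 0.09 (SE), adjusted p = 3.28e-10), while Araf was at 42.9 and 50.9 CPM with RAS present and 38.4, 45.8 and 47.3 CPM with RAS deleted. The groups overlapped for Araf and lay apart for Braf. Mras, a RAS-related GTPase that with Shoc2 helps to activate RAF, was at 0.935 and 1.09 CPM with RAS present and 10.03, 5.11 and 4.38 CPM with RAS deleted (log2 change 2.68 ± 0.30 (SE), adjusted p = 4.31e-07). Ksr1, a scaffold of RAF and MEK, was at 12.1 and 13.1 CPM with RAS present and 38.3, 24.4 and 20.3 CPM with RAS deleted (log2 change 1.13 ± 0.19 (SE), adjusted p = 7.39e-05), a call that was lost without RAS-deleted replicate 1. Mapk3, which encodes ERK1, was at 37.6 and 42.9 CPM with RAS present and 23.7, 24.2 and 21.1 CPM with RAS deleted, under 2-fold (-0.81, adjusted p = 5.98e-07). Of 15 FGF ligands and receptors, 4 fell and 1 rose, a share called of 33.3% beside the same 17.3%. Fgfr2 rose, at 24.5 and 18.9 CPM with RAS present and 50.3, 80.9 and 107 CPM with RAS deleted (log2 change 1.87 ± 0.28 (SE), adjusted p = 3.24e-05), and was highest in replicate 3. Fgfr1, the main receptor of these cells, was at 165 and 142 CPM with RAS present and 272, 204 and 219 CPM with RAS deleted (0.59, adjusted p = 0.00177), and Fgf4, the ligand that the cells themselves make, was at 118 and 125 CPM with RAS present and 267, 241 and 204 CPM with RAS deleted, just under 2-fold (0.97, adjusted p = 2.74e-06). Fgf5, Fgf10, Fgfr4 and Klb, a co-receptor, fell. None of the 4 ETS repressors Erf, Etv3, Etv6 and Elk3 passed both conditions.

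**Figure D2:**
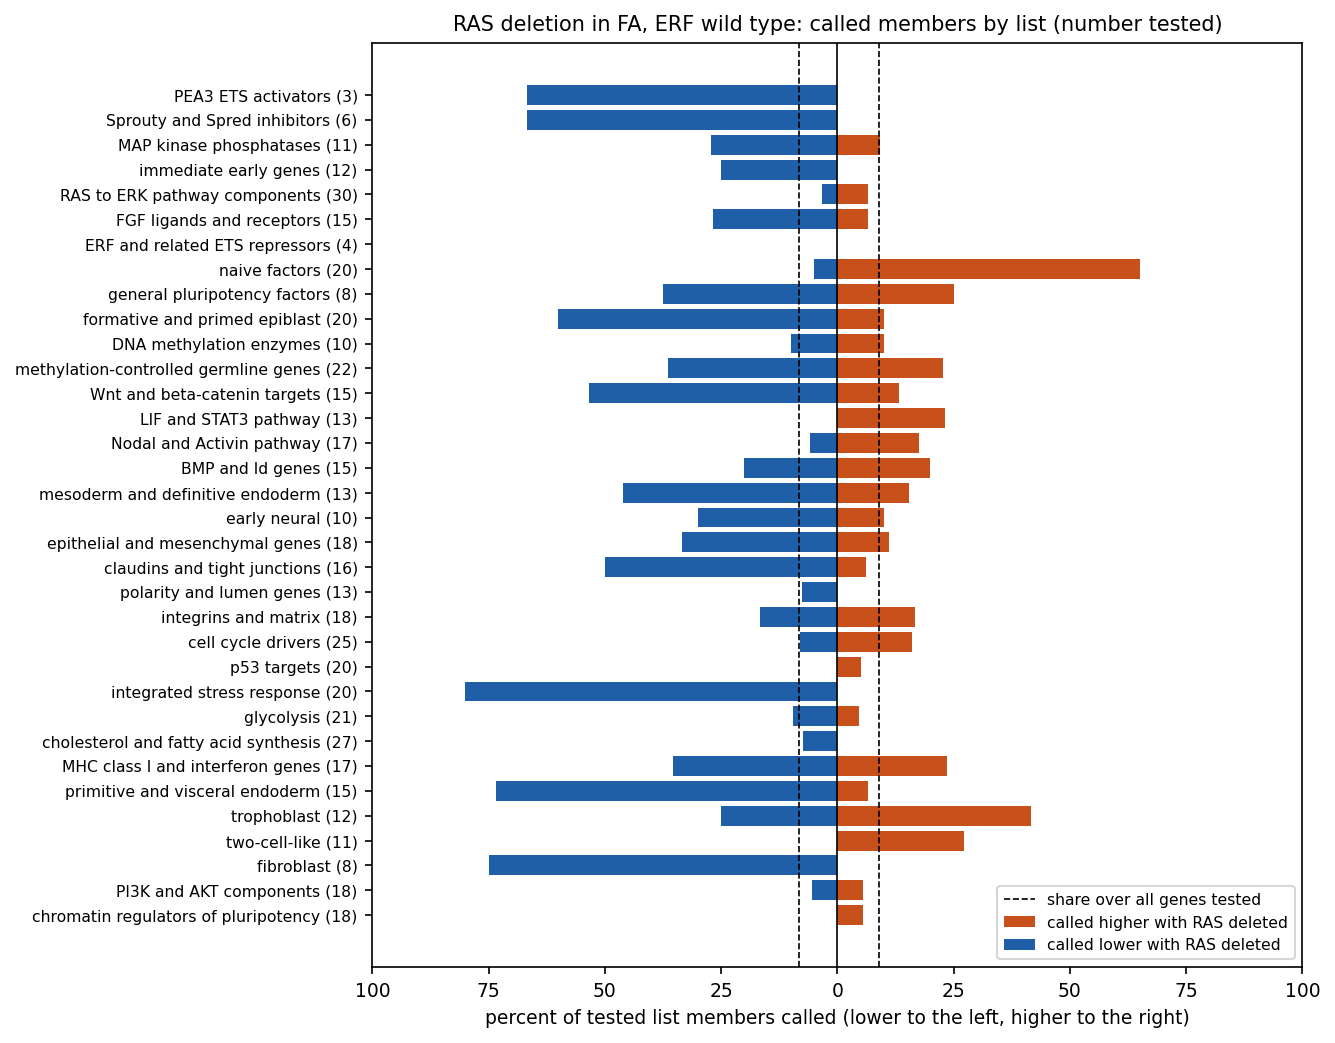
Percent of tested members called lower (left) and higher (right) with RAS deleted in FA, for 34 gene lists with the number tested; dashed lines mark the share over all tested genes, 8.33% lower and 8.93% higher. The stress response, fibroblast, endoderm, Sprouty, PEA3 and formative lists have the largest shares called lower and the naive list the largest share called higher, and those of pathway components, cholesterol synthesis and p53 targets lie inside the dashed lines.

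Naive factors were higher without RAS: 13 of 20 rose and 1 fell, with a median log2 change of 2.47. The share called was 70%, beside 17.3% of all tested genes. Klf4, a factor that ERK is known to oppose, was at 3.56 and 3.36 CPM with RAS present and 46.4, 35.1 and 32.6 CPM with RAS deleted (log2 change 3.45 ± 0.17 (SE), adjusted p = 1.23e-12). Nanog was at 93.6 and 100.1 CPM with RAS present and 588, 453 and 331 CPM with RAS deleted (log2 change 2.24 ± 0.18 (SE), adjusted p = 4.65e-09). Esrrb, an orphan nuclear receptor of the naive network, was at 31.9 and 22.3 CPM with RAS present and 221, 185 and 172 CPM with RAS deleted (log2 change 2.83 ± 0.17 (SE), adjusted p = 2.82e-11). Tfcp2l1 was at 28.4 and 34.3 CPM with RAS present and 252, 189 and 157 CPM with RAS deleted (log2 change 2.67 ± 0.19 (SE), adjusted p = 9.08e-10). In all 4 the groups lay far apart. Zfp42, the classical marker Rex1, was at 36.8 and 21.2 CPM with RAS present and 442, 348 and 306 CPM with RAS deleted (log2 change 3.65 ± 0.23 (SE), adjusted p = 4.07e-10); it lies on chromosome 8. Tbx3 was at 25.98 and 18.7 CPM with RAS present and 179.7, 95.5 and 78.3 CPM with RAS deleted (log2 change 2.39 ± 0.30 (SE), adjusted p = 6.45e-06) and Dppa3, known as Stella, at 3.78 and 4.31 CPM with RAS present and 22.1, 22.1 and 19.1 CPM with RAS deleted (log2 change 2.39 ± 0.27 (SE), adjusted p = 4.12e-07). Klf2, Nr0b1, Nr5a2, Tcl1 and Sox21 also rose, by 2.55 to 3.47.

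The 2iL libraries with RAS present give the level in the starting medium. Tfcp2l1 averaged 1202 CPM there, Klf4 averaged 238 CPM and Tbx3 averaged 306 CPM, each above all 3 RAS-deleted libraries in FA. Prdm14 averaged 35.2 CPM, inside the range of the RAS-deleted libraries, and Zfp42 averaged 269 CPM, below it. These differences between media were not tested. Klf5 was at 61.4 and 59.5 CPM with RAS present and 45.4, 64.6 and 74.01 CPM with RAS deleted, with a log2 change of 0.02 and overlapping groups, and Dppa4 had a log2 change of -0.15. Gbx2, which belongs to the naive list but is also a gene of the post-implantation embryo, fell, at 32.3 and 28.5 CPM with RAS present and 3.59, 6.2 and 8.95 CPM with RAS deleted (log2 change -2.27 ± 0.25 (SE), adjusted p = 2.38e-07). Of 8 general pluripotency factors, Sox2 and Foxd3 rose while Utf1, Lin28a and Tdgf1 fell, a share called of 62.5% beside 17.3% of all tested genes. Sox2 was at 72.8 and 93.05 CPM with RAS present and 264, 271 and 237 CPM with RAS deleted (log2 change 1.64 ± 0.13 (SE), adjusted p = 1.3e-09). Tdgf1, the Nodal co-receptor Cripto, was at 307 and 268 CPM with RAS present and 55.3, 65.3 and 83.1 CPM with RAS deleted (log2 change -2.08 ± 0.14 (SE), adjusted p = 3.52e-10). Lin28a, a regulator of let-7 microRNAs, was at 305 and 367 CPM with RAS present and 71.4, 149 and 232 CPM with RAS deleted, and its call was lost without RAS-deleted replicate 1 or RAS-present replicate 2 (log2 change -1.16 ± 0.33 (SE), adjusted p = 0.0098).

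**Figure D3:**
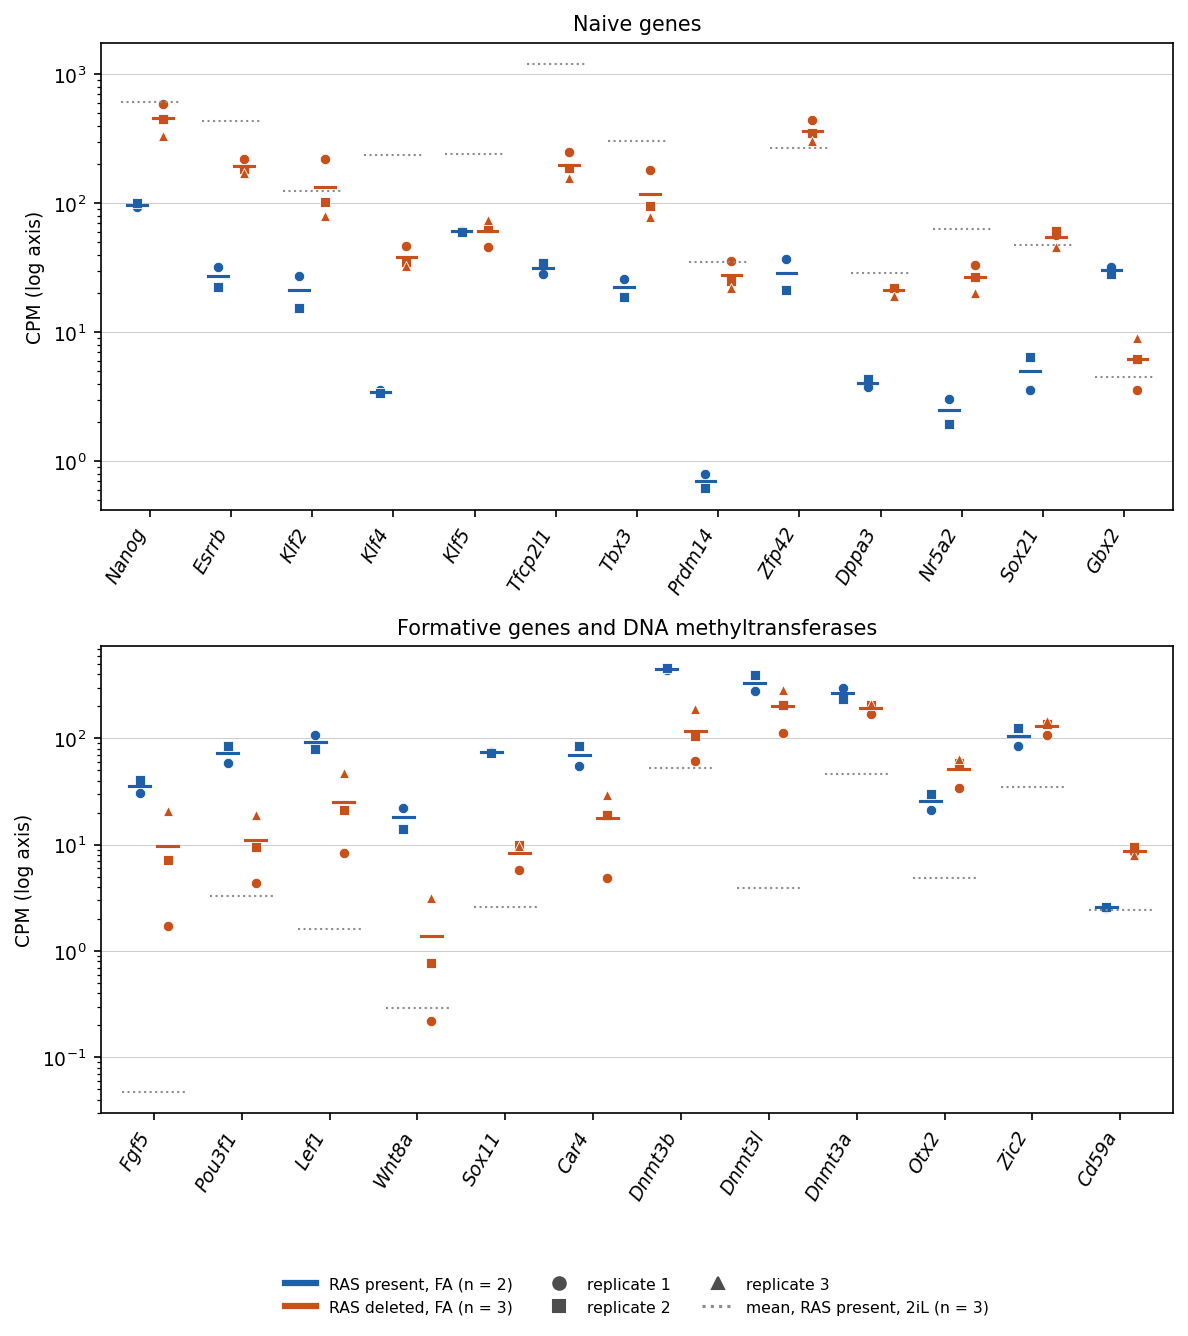
Levels (CPM, log axis) of naive genes (top) and of formative genes and DNA methyltransferases (bottom) in the 5 FA libraries; points are libraries, short solid lines group means, and dotted lines the mean of 3 RAS-present libraries in 2iL. RAS-deleted libraries lie above the RAS-present ones for most naive genes (not Klf5 and Gbx2) and below them for most formative genes (not Otx2, Cd59a and Zic2), and in most of these replicate 1 is farthest from the RAS-present libraries and replicate 3 nearest.

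Formative genes were the counterpart: of 20 tested, 12 fell and 2 rose, with a median of -1.33. The share called was 70%, beside 17.3% of all tested genes. Pou3f1, known as Oct6, was at 59.1 and 85.4 CPM with RAS present and 4.38, 9.44 and 19.2 CPM with RAS deleted (log2 change -2.70 ± 0.37 (SE), adjusted p = 1.81e-05). Fgf5, the classical marker of the post-implantation epiblast, was at 30.6 and 41.01 CPM with RAS present and 1.71, 7.13 and 20.6 CPM with RAS deleted (log2 change -1.85 ± 0.51 (SE), adjusted p = 0.00831), a call that was lost without RAS-present replicate 2. Lef1, a partner of beta-catenin, was at 107 and 79.8 CPM with RAS present and 8.32, 21.4 and 46.8 CPM with RAS deleted (log2 change -1.87 ± 0.46 (SE), adjusted p = 0.00377), and its call was lost without the 4 replicate 1 libraries that had raised chromosome 8. The calls of Fgf5 and Lef1 were also lost when the 5 libraries were fitted by themselves. Sox11 was at 75.3 and 73.1 CPM with RAS present and 5.78, 9.89 and 9.67 CPM with RAS deleted (log2 change -3.13 ± 0.16 (SE), adjusted p = 2.72e-12) and Wnt8a was at 22.3 and 13.97 CPM with RAS present and 0.219, 0.77 and 3.16 CPM with RAS deleted (log2 change -3.66 ± 0.54 (SE), adjusted p = 2.79e-05). The groups lay apart for each of these 5 genes, as for 53.1% of all tested genes. Grhl2, a factor that opens epithelial enhancers in the formative state, was at 29.4 and 28.2 CPM with RAS present and 6.57, 6.69 and 8.16 CPM with RAS deleted (log2 change -2.01 ± 0.20 (SE), adjusted p = 4.06e-08). Otx2, which drives the same transition, went the other way, at 21.3 and 30.1 CPM with RAS present and 34.4, 58.3 and 63.6 CPM with RAS deleted (log2 change 1.03 ± 0.19 (SE), adjusted p = 0.000191). Its change is close to the 2-fold limit and its call was lost without RAS-present replicate 1, RAS-deleted replicate 2 or RAS-deleted replicate 3. Cd59a rose from 2.55 and 2.604 CPM to 8.59, 9.44 and 7.94 CPM (log2 change 1.75 ± 0.19 (SE), adjusted p = 1.52e-07). Zic2 and Zic5 overlapped between the groups.

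The RAS-deleted libraries spread along this same axis. Of the 20 formative genes, 18 were lowest in replicate 1 and 17 highest in replicate 3. Of the 20 naive genes, 16 were highest in replicate 1 and 15 lowest in replicate 3. The mean of log2(CPM + 1) over the formative list was 3.78, 4.37 and 4.75 in the 3 RAS-deleted libraries and 5.36 and 5.53 with RAS present, and in 2iL with RAS present it ran from 2.49 to 2.59. For the naive list it was 5.98, 5.75 and 5.59 with RAS deleted, 4.13 and 3.94 with RAS present, and 6.41 to 6.66 in 2iL. On both lists every RAS-deleted library lay between the RAS-present FA libraries and the 2iL libraries. Replicate 1 is the RAS-deleted library with raised chromosome 8. The part of that in the spread was not tested. Without the 4 replicate 1 libraries that had raised chromosome 8, 14 naive genes were higher and 1 lower, and 3 formative genes were higher and 11 lower.

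Of 10 genes of DNA methylation, Dnmt3b fell and Zfp57 rose, a share of 20% beside 17.3% of all tested genes. Dnmt3b, a de novo methyltransferase that is switched on in the formative state, was at 437 and 463 CPM with RAS present and 62, 105 and 187 CPM with RAS deleted (log2 change -1.93 ± 0.31 (SE), adjusted p = 8.94e-05). Dnmt3l, its cofactor, was at 276 and 394 CPM with RAS present and 112, 207 and 287 CPM with RAS deleted, overlapping between the groups (log2 change -0.73 ± 0.26 (SE), adjusted p = 0.0357). Dnmt3a was at 295 and 235 CPM with RAS present and 169, 204 and 210 CPM with RAS deleted (log2 change -0.45 ± 0.12 (SE), adjusted p = 0.00553), under 2-fold. Zfp57, which protects methylation at imprinted loci, rose, at 80.7 and 77.3 CPM with RAS present and 259, 268 and 228 CPM with RAS deleted (log2 change 1.67 ± 0.11 (SE), adjusted p = 2.34e-11). Of 22 germline genes that promoter methylation silences in the epiblast, 5 rose and 8 fell, a share called of 59.1%. Dazl, an RNA-binding protein of germ cells, was at 9.21 and 12.8 CPM with RAS present and 60.03, 64.9 and 47.5 CPM with RAS deleted (log2 change 2.39 ± 0.25 (SE), adjusted p = 5.02e-07). Tdrd1, of the piRNA pathway, was at 3.89 and 7.67 CPM with RAS present and 0.307, 0.648 and 0.827 CPM with RAS deleted (log2 change -3.23 ± 0.31 (SE), adjusted p = 1.4e-08). The median of this list was -0.71 and turned to 0.45 without RAS-present replicate 2, which was the higher of the 2 for all 22 members.

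Genes of the integrated stress response, which the factor ATF4 switches on when amino acids are short or protein folding is disturbed, fell in a larger share than those of any other list with more than 10 tested genes. Of 20 tested, 16 fell and none rose, with a median of -1.46 and a share called of 80% beside 17.3% of all tested genes. The promoters of 17 members, 250 bases before to 50 bases after the start site, were in the RefSeq table of build GRCm38.p6 (mm10). The C/EBP-ATF response element TGATGCAA, the sequence that ATF4 binds with C/EBP partners, was searched on both strands, and this motif was chosen after the values were seen. It was found in 5 of the 17 (29.4%), Chac1, Atf3, Vldlr, Slc7a11 and Nupr1, and in 279 of all 27025 gene symbols of the table (1.03%). A match is a description of these letters and shows no binding. For Chac1, Atf3 and Slc7a11, where no exon of the GENCODE annotation overlaps the stretch that holds it, the stretch is shown on the strand of the gene, 5′ to 3′, with the element in capitals, where TTGCATCA is the element on the opposite strand.
Chac1: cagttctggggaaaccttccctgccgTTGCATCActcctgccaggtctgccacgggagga
Atf3: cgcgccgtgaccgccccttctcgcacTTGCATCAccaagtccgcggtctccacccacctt
Slc7a11: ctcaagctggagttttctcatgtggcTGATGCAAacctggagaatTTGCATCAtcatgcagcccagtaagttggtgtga
They lie at chr2:119351023-119351082 (plus strand) for Chac1, chr1:191183410-191183469 (minus strand) for Atf3 and chr3:50443627-50443705 (minus strand) for Slc7a11. Slc7a11 holds the element 2 times, once on each strand, and each stretch lies upstream of the RefSeq start site used for it; a gene can have other start sites.

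All 5 genes with the element fell, beside 16 of the 20 tested members of the whole list. As the list is made of genes that ATF4 switches on, its share of matches was partly given by that choice. Whether the fall goes with the element was not tested. Chac1, an enzyme that degrades glutathione, was at 45.2 and 80.9 CPM with RAS present and 4.21, 5.31 and 2.98 CPM with RAS deleted (log2 change -3.92 ± 0.30 (SE), adjusted p = 7.44e-09). Slc7a11, the cystine importer, was at 5.14 and 6.25 CPM with RAS present and 0.613, 1.05 and 0.683 CPM with RAS deleted (log2 change -2.85 ± 0.29 (SE), adjusted p = 3.34e-08). Nupr1 was at 8.203 and 25.9 CPM with RAS present and 4.91, 2.59 and 1.94 CPM with RAS deleted (log2 change -2.44 ± 0.48 (SE), adjusted p = 0.000635), with a more than 3-fold difference between the RAS-present libraries. Vldlr was at 9.93 and 18.3 CPM with RAS present and 4.12, 4.903 and 3.23 CPM with RAS deleted (log2 change -1.78 ± 0.26 (SE), adjusted p = 1.08e-05). Atf3, a factor induced by ATF4, was at 4.497 and 6.87 CPM with RAS present and 3.68, 2.23 and 0.899 CPM with RAS deleted (log2 change -1.34 ± 0.37 (SE), adjusted p = 0.00594), and its call was lost without RAS-present replicate 2 or RAS-deleted replicate 3 and when the 5 libraries were fitted by themselves.

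Other members fell as well. Trib3, a pseudokinase, was at 34.8 and 85.4 CPM with RAS present and 6.62, 6.97 and 4.46 CPM with RAS deleted (log2 change -3.32 ± 0.33 (SE), adjusted p = 5.31e-07). Ddit3, the factor CHOP, was at 6.8 and 23.5 CPM with RAS present and 2.76, 2.96 and 1.797 CPM with RAS deleted (log2 change -2.59 ± 0.41 (SE), adjusted p = 7.2e-05). Phgdh and Psat1, enzymes of serine synthesis, and Mthfd2 fell: Phgdh was at 129 and 198 CPM with RAS present and 77.7, 54.7 and 37.8 CPM with RAS deleted, Psat1 at 192 and 322 CPM with RAS present and 119, 115 and 98.3 CPM with RAS deleted, and the mitochondrial folate enzyme Mthfd2 at 117 and 167 CPM with RAS present and 46.8, 50.9 and 42.7 CPM with RAS deleted (log2 change -1.60 ± 0.11 (SE), adjusted p = 1.25e-10). Both chains of the large neutral amino acid transporter fell, Slc7a5 at 314 and 390 CPM with RAS present and 119, 90.5 and 75.3 CPM with RAS deleted (log2 change -1.89 ± 0.19 (SE), adjusted p = 3.29e-07) and Slc3a2 at 240.5 and 323 CPM with RAS present and 124, 115 and 123 CPM with RAS deleted. The calls of Psat1 and Slc3a2 were lost without RAS-present replicate 2. Atf4 itself was at 162 and 253 CPM with RAS present and 151, 135 and 123 CPM with RAS deleted, under 2-fold (log2 change -0.60 ± 0.14 (SE), adjusted p = 0.00113). Cth and Sesn2 overlapped between the groups.

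The 2 RAS-present libraries differed on this list. Each tested member was higher in replicate 2 than in replicate 1, and the mean of log2(CPM + 1) was 5.48 and 6.24, against 4.65, 4.51 and 4.26 with RAS deleted. Without RAS-present replicate 2, 11 members fell and the median was -1.01; without RAS-present replicate 1, the median was -1.77. The direction was the same in both, and the size depends on which of the 2 libraries is used.

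**Figure D4:**
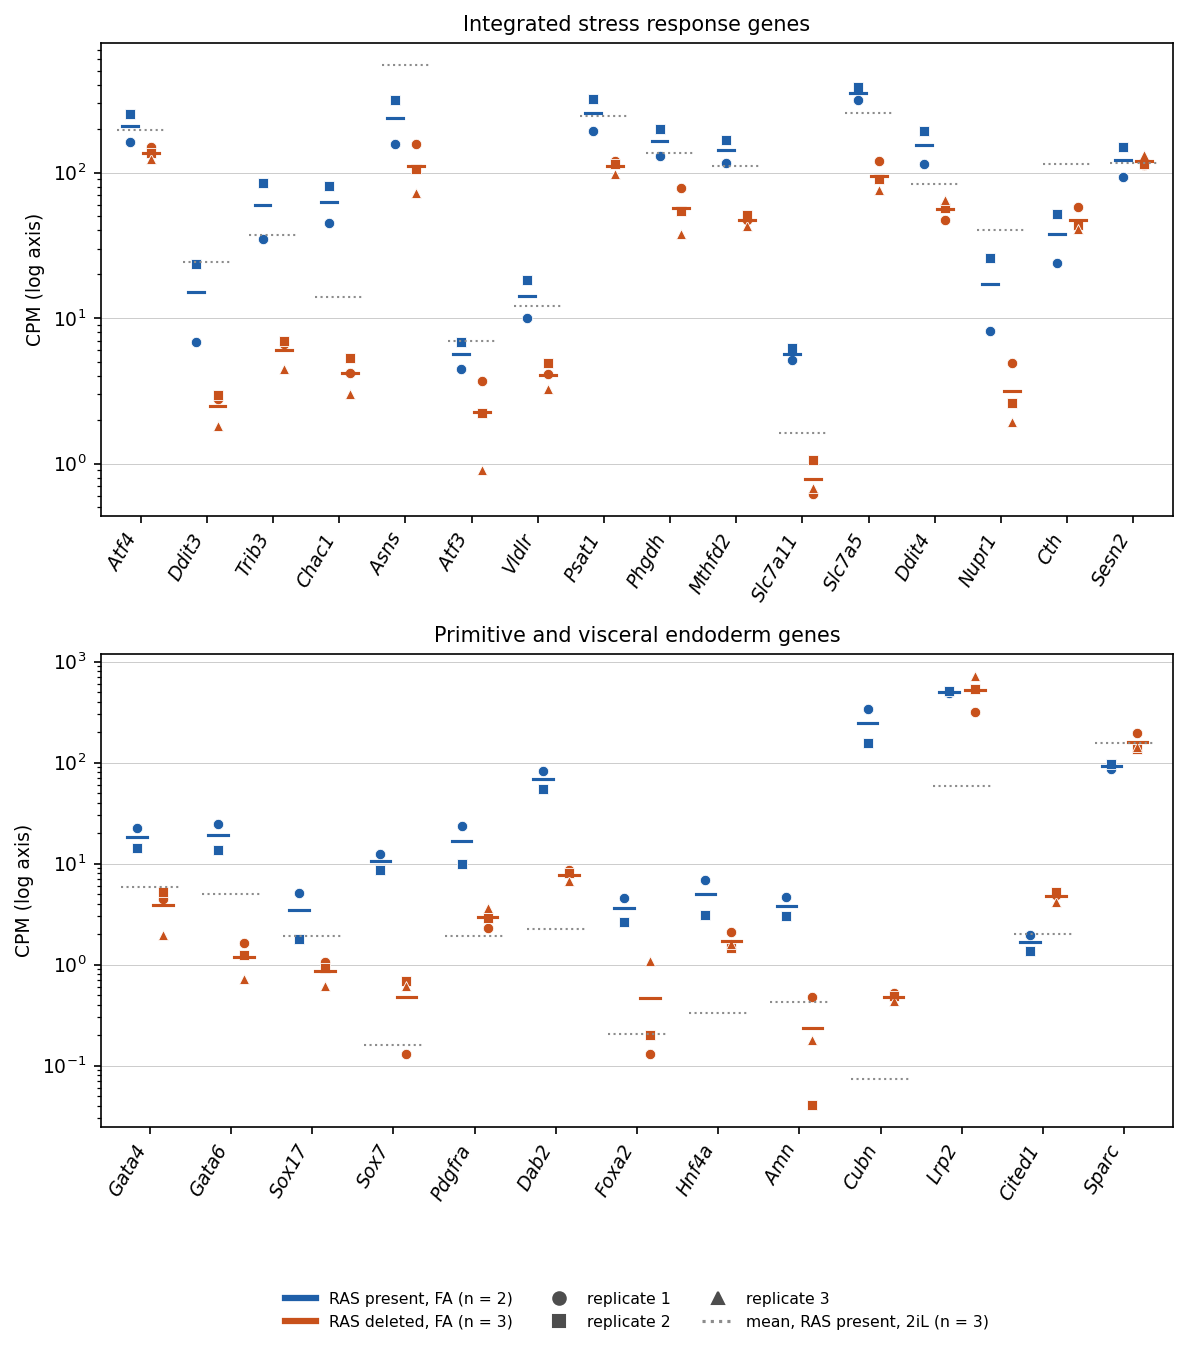
Levels (CPM, log axis) of genes of the integrated stress response (top) and of primitive and visceral endoderm (bottom) in the 5 FA libraries; points are libraries, short solid lines group means, and dotted lines the mean of 3 RAS-present libraries in 2iL. Most genes of both panels lie lower with RAS deleted; RAS-present replicate 2 is the higher of its pair in the top panel and replicate 1 for most genes of the bottom panel.

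Genes of primitive and visceral endoderm, a lineage that needs FGF and ERK signals in the embryo, were counted in the RAS-present libraries and mostly lower without RAS. Of 15 tested, 11 fell and 1 rose, with a median of -2.49 and a share called of 80% beside 17.3% of all tested genes. Gata6, the factor that specifies the lineage, was at 24.9 and 13.6 CPM with RAS present and 1.62, 1.26 and 0.719 CPM with RAS deleted (log2 change -4.03 ± 0.34 (SE), adjusted p = 5.85e-09). Gata4 was at 22.4 and 14.3 CPM with RAS present and 4.43, 5.19 and 1.98 CPM with RAS deleted (log2 change -2.26 ± 0.39 (SE), adjusted p = 0.000138) and Sox7 at 12.4 and 8.57 CPM with RAS present and 0.132, 0.689 and 0.611 CPM with RAS deleted (log2 change -4.42 ± 0.43 (SE), adjusted p = 3.53e-08). Sox17 was at 5.11 and 1.799 CPM with RAS present and 1.05, 0.932 and 0.611 CPM with RAS deleted (log2 change -2.02 ± 0.47 (SE), adjusted p = 0.00165), whose call was lost without RAS-present replicate 1. Dab2, an endocytic adaptor, was at 83.4 and 54.5 CPM with RAS present and 8.63, 8.06 and 6.69 CPM with RAS deleted (log2 change -3.15 ± 0.28 (SE), adjusted p = 4.17e-08). In all 5 of these genes the RAS-deleted libraries lay below both RAS-present libraries. Pdgfra, Foxa2, Hnf4a, Amn and Cubn were among the other falls, and Amn encodes the partner of cubilin. Lrp2, the receptor megalin that works with cubilin, was at 487 and 515 CPM with RAS present and 314, 531 and 724 CPM with RAS deleted, with overlapping groups, and Cited1 rose. The secreted endoderm markers Afp, Ttr and Apoa1 were too low to be tested. The summed level of the list was 1118 and 889 CPM with RAS present and 535.5, 695 and 889 CPM with RAS deleted, in which Lrp2 took the largest part. For 13 of the 15 members RAS-present replicate 1 lay above replicate 2. Without replicate 1, 10 members were called and the median was -1.88, and without replicate 2 it was -3.07.

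Of 13 tested genes of mesoderm and definitive endoderm, 6 fell and 2 rose, a share called of 61.5% beside 17.3% of all tested genes. Eomes, the most abundant of them with RAS present, was at 14.3 and 18.2 CPM with RAS present and 6.09, 7.62 and 11.1 CPM with RAS deleted, just under 2-fold (-0.97, adjusted p = 0.000263). Hand1 was at 6.44 and 8.097 CPM with RAS present and 0.219, 0.284 and 0.503 CPM with RAS deleted (log2 change -4.38 ± 0.43 (SE), adjusted p = 2.15e-08), and T, known as Brachyury, stayed under 1 CPM in all 5 libraries. Of 10 tested early neural genes, 3 fell, among them Sox1 and Zfp521, and Pou3f3 rose, a share called of 40%. Sox1 was at 39.5 and 38.4 CPM with RAS present and 6.66, 6.48 and 8.38 CPM with RAS deleted (log2 change -2.44 ± 0.16 (SE), adjusted p = 9.28e-11). Of 12 tested trophoblast genes, 5 rose and 3 fell, a share called of 66.7% beside the same 17.3%. The most abundant rises were Tfap2c, at 8.74 and 13.97 CPM with RAS present and 51.1, 48.3 and 36.9 CPM with RAS deleted (log2 change 2.01 ± 0.17 (SE), adjusted p = 7.15e-09), Tead4, at 6.01 and 5.49 CPM with RAS present and 25.6, 21.6 and 18.3 CPM with RAS deleted (log2 change 1.92 ± 0.15 (SE), adjusted p = 8.88e-10), and Gata3, at 1.37 and 1.89 CPM with RAS present and 18.3, 18.5 and 17.5 CPM with RAS deleted (log2 change 3.48 ± 0.25 (SE), adjusted p = 1.38e-10), of which Tfap2c and Tead4 are also expressed in naive stem cells. Cdx2, which defines the lineage, fell but was under 1 CPM in all 5 libraries, its call was lost without RAS-present replicate 1, and the placental markers Prl3d1 and Tpbpa were too low to be tested.

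Of 8 tested fibroblast genes 6 fell, a share of 75% beside 17.3% of all tested genes. The summed level of this list was only 23.2 and 24.2 CPM with RAS present and 16.5, 11.95 and 10.6 CPM with RAS deleted. Of 11 genes of the 2-cell-like state 3 rose, Zscan4c, Zscan4d and Zscan4f, a share of 27.3% beside 17.3% of all tested genes. These near-identical copies may share reads. The rise was not particular to FA: in 2iL 5 of the 11 rose, and the median log2 change was 2.24 there and 1.17 in FA. The difference between media passed both conditions for 1 of the 11, which was lower in FA. Zscan4c was at 16.2 and 7.103 CPM with RAS present and 107, 57.5 and 29.7 CPM with RAS deleted (log2 change 2.44 ± 0.69 (SE), adjusted p = 0.00915), highest in RAS-deleted replicate 1. Without RAS-deleted replicate 1 only 1 gene of the list was called, and without RAS-present replicate 2 none.

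In the Nodal and Activin pathway, which FA feeds through Activin A, 3 of 17 genes rose and 1 fell, a share of 23.5% beside 17.3% of all tested genes. Targets of the pathway were expressed in all 5 libraries: Lefty1, a feedback inhibitor of Nodal, was at 476 and 486 CPM with RAS present and 514, 591 and 741 CPM with RAS deleted (log2 change 0.36 ± 0.14 (SE), adjusted p = 0.0494). Lefty2 was at 126 and 119 CPM with RAS present and 148, 138 and 197 CPM with RAS deleted (log2 change 0.40 ± 0.19 (SE), adjusted p = 0.104). Nodal was at 63.2 and 75.7 CPM with RAS present and 91.3, 81.5 and 96.5 CPM with RAS deleted (log2 change 0.37 ± 0.14 (SE), adjusted p = 0.0408). All 3 changes were under 2-fold. Pcsk6, a protease that matures Nodal, rose, at 26.3 and 24.4 CPM with RAS present and 103, 87.5 and 79.2 CPM with RAS deleted (log2 change 1.82 ± 0.12 (SE), adjusted p = 3.13e-11), with Inhbb and Fst, while Tdgf1 fell. Of 13 LIF and STAT3 genes, Lifr, Bcl3 and Klf4, which is also in the naive list, rose and none fell, a share of 23.1% beside the same 17.3%. Lifr, the LIF receptor, was at 27.7 and 23.9 CPM with RAS present and 53.4, 52.6 and 50.9 CPM with RAS deleted (log2 change 1.02 ± 0.15 (SE), adjusted p = 9.22e-06), a call that was lost without RAS-present replicate 2, and Socs3, a direct STAT3 target, was at 4.42 and 3.27 CPM with RAS present and 4.64, 1.78 and 1.62 CPM with RAS deleted, with overlapping groups.

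Of 15 Wnt and beta-catenin targets, 8 fell and 2 rose, a share called of 66.7% beside 17.3% of all tested genes. The median log2 change was -1.21 in FA and 0.53 in 2iL, where 5 rose and none fell. The difference between media passed both conditions for 9 of them, 7 lower in FA and 2 higher. Axin2, the general target, was at 19.6 and 13.3 CPM with RAS present and 5.39, 5.43 and 6.83 CPM with RAS deleted (log2 change -1.48 ± 0.24 (SE), adjusted p = 5.92e-05). Dkk1, a secreted Wnt inhibitor, was at 6.84 and 1.94 CPM with RAS present and 0.307, 0.243 and 0.0719 CPM with RAS deleted (log2 change -4.42 ± 0.48 (SE), adjusted p = 1.18e-07), with a more than 3-fold difference between the RAS-present libraries. Notum, an enzyme that inactivates Wnt proteins, rose, at 2.84 and 1.18 CPM with RAS present and 35.5, 30.8 and 37.7 CPM with RAS deleted (log2 change 4.06 ± 0.31 (SE), adjusted p = 1.2e-09). Tcf7l1, a repressor of Wnt targets in stem cells, rose too, at 44.7 and 69.04 CPM with RAS present and 154, 163 and 167 CPM with RAS deleted (log2 change 1.51 ± 0.16 (SE), adjusted p = 1.44e-07), as the only call among 18 chromatin and transcription regulators of pluripotency (5.56%). Of 15 BMP genes 3 rose and 3 fell, a share called of 40% beside the same 17.3%. The Id genes, which BMP induces, split: Id1 fell from 2.05 and 0.9 CPM to 0.307, 0.486 and 0.827 CPM, Id2 rose from 2.19 and 1.75 CPM to 4.91, 7.09 and 7.55 CPM, and Id4 rose from 0.504 and 0.332 CPM to 4.73, 5.03 and 4.78 CPM. The call of Id1 was lost without RAS-present replicate 1.

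Epithelial genes fell in part. Epcam was at 130.4 and 188 CPM with RAS present and 36.4, 31 and 28.8 CPM with RAS deleted (log2 change -2.31 ± 0.19 (SE), adjusted p = 1.79e-08). Esrp1, a splicing factor of epithelia, was at 38.03 and 38.7 CPM with RAS present and 1.97, 5.35 and 8.12 CPM with RAS deleted (log2 change -2.88 ± 0.36 (SE), adjusted p = 4.48e-06). Cdh1, which encodes E-cadherin, was at 361 and 280.3 CPM with RAS present and 321, 194 and 186 CPM with RAS deleted, with overlapping groups (log2 change -0.46 ± 0.24 (SE), adjusted p = 0.14); it lies on chromosome 8, and replicate 1 was the highest library in both groups. Cdh2 overlapped between the groups. Of the 18 epithelial and mesenchymal genes, 6 fell and 2 rose, a share called of 44.4% beside 17.3% of all tested genes. Vim fell while Fn1 and Zeb1 rose. The call of Vim was lost without RAS-present replicate 1. Fn1, fibronectin, was at 455 and 494 CPM with RAS present and 1449, 1232 and 1085 CPM with RAS deleted (log2 change 1.40 ± 0.13 (SE), adjusted p = 1.05e-08). Of 16 claudins and tight junction genes, 8 fell and 1 rose, a share called of 56.2% beside the same 17.3%. Cldn6, a claudin of pluripotent epithelium, was at 17.8 and 20.5 CPM with RAS present and 3.37, 3.32 and 2.77 CPM with RAS deleted (log2 change -2.60 ± 0.22 (SE), adjusted p = 2.26e-09). Cldn3 was at 8.46 and 14.6 CPM with RAS present and 2.85, 2.11 and 1.44 CPM with RAS deleted (log2 change -2.44 ± 0.23 (SE), adjusted p = 1.32e-08). Lsr, of tricellular junctions, was at 36.6 and 47.8 CPM with RAS present and 8.15, 5.88 and 5.07 CPM with RAS deleted (log2 change -2.73 ± 0.19 (SE), adjusted p = 3.46e-10). All RAS-deleted libraries lay below the RAS-present ones for these 3 genes. Cldn2, which forms a pore for cations, was the exception, at 0.216 and 0.332 CPM with RAS present and 4.86, 6.69 and 9.27 CPM with RAS deleted (log2 change 4.67 ± 0.51 (SE), adjusted p = 1.12e-06). Tjp1, the scaffold ZO-1, was at 238 and 250.4 CPM with RAS present and 226, 246 and 262 CPM with RAS deleted, with overlapping groups, and among 13 polarity genes only Crb3 fell (7.69% called).

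Of 18 integrin and matrix genes, 3 rose and 3 fell, a share called of 33.3% beside 17.3% of all tested genes. Itgb3, an integrin chain found on naive cells, was at 1.48 and 2.18 CPM with RAS present and 57.2, 36.3 and 24.3 CPM with RAS deleted (log2 change 4.44 ± 0.35 (SE), adjusted p = 1.01e-08). The nidogens Nid1 and Nid2, which link laminin and collagen in basement membranes, rose; Nid1 was at 35.6 and 40.7 CPM with RAS present and 318, 203 and 154 CPM with RAS deleted (log2 change 2.56 ± 0.23 (SE), adjusted p = 7.28e-08). Of the laminin chains, Lama1 fell, at 122 and 74.4 CPM with RAS present and 25.4, 23.1 and 25.7 CPM with RAS deleted (log2 change -1.99 ± 0.41 (SE), adjusted p = 0.000971), and its call was lost without the 4 replicate 1 libraries. Lamb1 fell, at 249 and 204 CPM with RAS present and 59.3, 72.1 and 83.3 CPM with RAS deleted (log2 change -1.66 ± 0.24 (SE), adjusted p = 3.26e-05), and Lamc1 was higher, at 339 and 376 CPM with RAS present and 661, 633 and 588 CPM with RAS deleted, under 2-fold (0.81).

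Among 25 cell cycle drivers, Ccnd1, Ccnd2, Ccnd3 and Mycn rose and Myc and Cdk6 fell, a share of 24% beside 17.3% of all tested genes. Mycn was at 44.7 and 37.2 CPM with RAS present and 123, 142 and 169 CPM with RAS deleted (log2 change 1.82 ± 0.13 (SE), adjusted p = 1.64e-10), opposite to Myc. Ccnd2 was at 13.5 and 16.8 CPM with RAS present and 13.1, 43 and 129 CPM with RAS deleted, so that RAS-deleted replicate 1 overlapped the RAS-present libraries and replicate 3 lay far above them (log2 change 2.04 ± 0.65 (SE), adjusted p = 0.0196), and its call was lost without replicate 3 or either RAS-present library. Ccnd1 was at 69.6 and 27.04 CPM with RAS present and 92.9, 95.8 and 123 CPM with RAS deleted, and its call was lost without RAS-present replicate 2 or RAS-deleted replicate 3 (log2 change 1.10 ± 0.32 (SE), adjusted p = 0.0114). Ccnd3 was at 57.2 and 73.9 CPM with RAS present and 133, 145 and 135 CPM with RAS deleted (log2 change 1.07 ± 0.11 (SE), adjusted p = 6.06e-08), a call lost without RAS-present replicate 1. Of the 25, 9 more had an adjusted p under 0.05 with a change under 2-fold. Btg2 was the only one of 20 p53 targets (5%) to pass both conditions (1.13, adjusted p = 7.03e-08), and its call was lost without RAS-present replicate 1. Cdkn1a was at 31.01 and 42.1 CPM with RAS present and 66.9, 54.1 and 56.97 CPM with RAS deleted (0.70, adjusted p = 0.0135).

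Of 21 glycolytic genes, Ldhb rose and Pfkl and Pdk1 fell, a share of 14.3% beside 17.3% of all tested genes. Pdk1, a kinase that holds back pyruvate oxidation, was at 149.8 and 148 CPM with RAS present and 11.4, 10.8 and 10.2 CPM with RAS deleted (log2 change -3.78 ± 0.14 (SE), adjusted p = 1.26e-14), and the libraries of each group were nearly equal. Of 27 genes of cholesterol and fatty acid synthesis, Lss (-1.13) and Dhcr7 (-1.20) fell, a share called of 7.41% beside the same 17.3%. The call of Lss was lost without RAS-present replicate 1. Of 18 genes of the PI3K and AKT pathway, Tcl1 rose and Pik3cd fell, a share of 11.1% beside the same 17.3%. Pik3cd was at 20.5 and 19.6 CPM with RAS present and 8.76, 8.96 and 7.51 CPM with RAS deleted (log2 change -1.26 ± 0.11 (SE), adjusted p = 4.19e-09). In the list of MHC class I and interferon genes, 4 of 17 rose and 6 fell, a share called of 58.8% beside the same 17.3%. Psmb8, of the immunoproteasome, was at 2.05 and 5.303 CPM with RAS present and 0.0876, 0.162 and 0.252 CPM with RAS deleted (log2 change -4.36 ± 0.56 (SE), adjusted p = 2.06e-06). Bst2, known as tetherin and also on chromosome 8, was at 54.9 and 66.9 CPM with RAS present and 6.88, 4.46 and 2.55 CPM with RAS deleted (log2 change -3.74 ± 0.30 (SE), adjusted p = 2.63e-08). The Ifitm genes, membrane proteins that block virus entry and are expressed in early germ cells, rose: Ifitm1 was at 6.296 and 6.63 CPM with RAS present and 86.7, 90.4 and 98.1 CPM with RAS deleted (log2 change 3.83 ± 0.20 (SE), adjusted p = 4.69e-12), Ifitm3 was at 12.1 and 14.2 CPM with RAS present and 75.1, 89.6 and 91.4 CPM with RAS deleted (log2 change 2.70 ± 0.11 (SE), adjusted p = 2.01e-14), and Ifitm2 changed by 1.23. These 3 are close paralogs, between which reads may be split.

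The effect of RAS deletion in FA differed from that in 2iL, where MEK is inhibited. In 2iL with ERF wild type 244 genes (1.2%) passed both conditions, and the difference between the 2 RAS effects passed both conditions for 2425 genes (11.9%). The 2 comparisons share no library. Of the 3518 genes called in FA, 43 were higher and 44 lower in 2iL too, which is 2.47% of the calls in FA and 35.7% of those in 2iL, and 16 were called in the opposite direction. Of the 28 genes followed in every library, 19 differed. Spry2 averaged 40.7 CPM with RAS present and 44.7 CPM with RAS deleted in 2iL, and the difference of effects was -4.15 ± 0.22 (SE, adjusted p = 1.9e-11). Klf4 averaged 238 and 229 CPM in 2iL (difference 3.50 ± 0.20, adjusted p = 4.59e-11). Esrrb averaged 436 and 401 CPM there (difference 2.94 ± 0.20, adjusted p = 1.38e-09). None of the 20 naive and 20 formative genes passed both conditions in 2iL.

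Some genes of the integrated stress response fell in both media. The median change of the list in 2iL was -0.78, and 4 of its genes fell there too, Ddit3 (-2.50), Trib3 (-1.04), Chac1 (-1.81) and Nupr1 (-1.52), with none higher. The difference between FA and 2iL passed both conditions for 7 of 20 members, 6 of them lower in FA and 1 higher. No gene of the endoderm list passed in 2iL (median -0.05), and the difference was called for 9 of 15, all lower in FA.

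**Figure D5:**
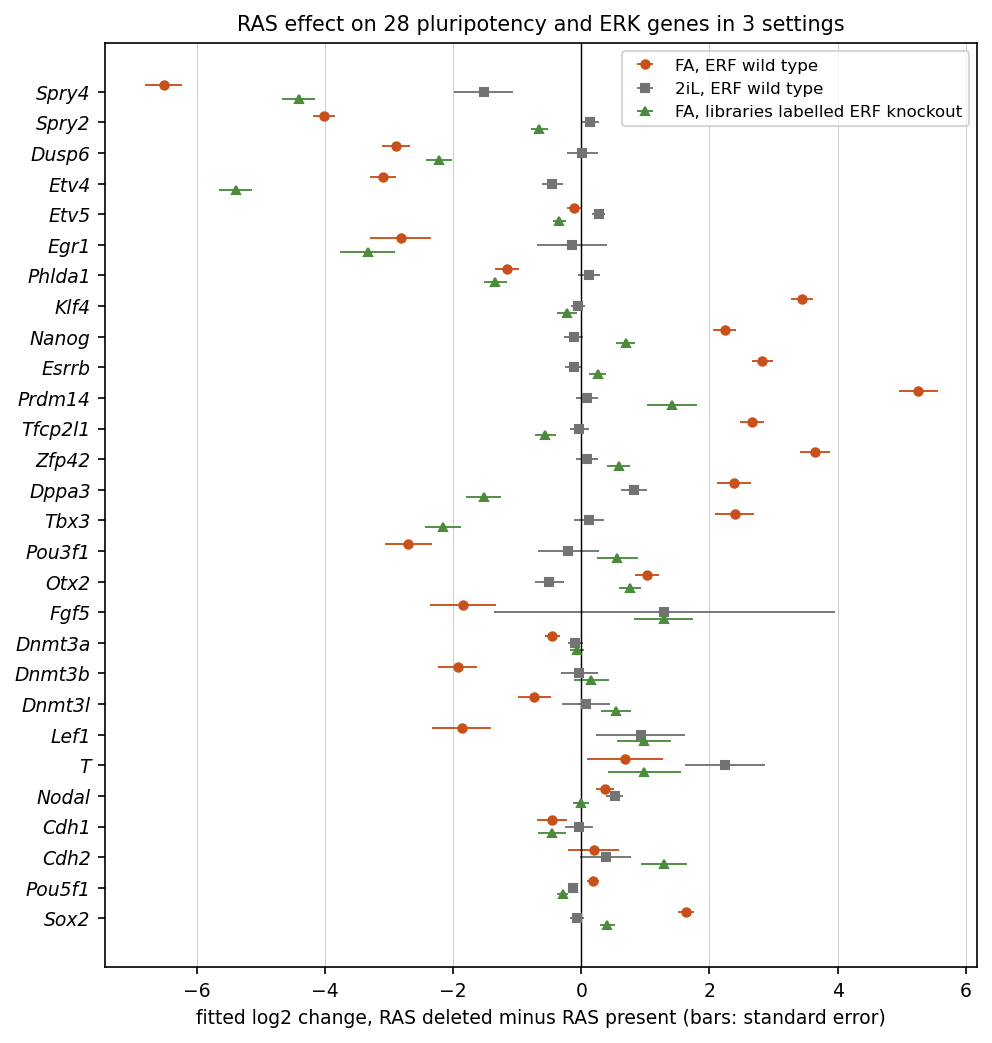
Fitted log2 change, RAS deleted minus RAS present, with its standard error, for 28 genes followed in every library: in FA with ERF wild type, in 2iL with ERF wild type and in FA in the libraries labelled ERF knockout. The naive genes Klf4 and Esrrb are raised in the first setting and near 0 in the other two. Not all naive genes are: in the line labelled ERF knockout Tbx3 (-2.15) and Dppa3 (-1.52) are lowered and Prdm14 (1.42) is raised. Spry4, Dusp6 and Etv4 are lowered in FA in both lines.

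In FA cells labelled ERF knockout, RAS deletion gave 1401 calls (6.88%), and the difference from the effect with ERF wild type passed both conditions for 2794 genes (13.7%). Of the 3518 calls with ERF wild type, 192 were higher and 321 lower in that line too (14.6%, and 36.6% of the calls in that line), and 123 were called in the opposite direction. Of the 28 followed genes 17 differed. For Klf4 the difference was -3.67 ± 0.23 (SE, adjusted p = 2.91e-10), with means of 5.34 CPM with RAS present and 4.56 CPM with RAS deleted in the line labelled ERF knockout. Tbx3 differed by -4.55 ± 0.41 (adjusted p = 4.58e-07), and there fell from 27.5 to 6.14 CPM on average. Pou3f1 differed by 3.26 ± 0.49 (adjusted p = 9.8e-05), at 40 and 59.1 CPM on average, and Dnmt3b by 2.09 ± 0.41 (adjusted p = 0.00118). Of the naive list 14 of 20 genes differed, 13 of them downward, and of the formative list 14 of 20 differed, 13 of them upward.

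ERK response genes did not all behave alike in that line. Spry2 averaged 39.4 CPM with RAS present and 25.1 CPM with RAS deleted there, so that its effect differed by 3.36 ± 0.22 (adjusted p = 7.24e-10). Spry4 differed by 2.11 ± 0.43 (adjusted p = 0.000737) but fell in that line too (log2 change -4.41 ± 0.26 (SE), adjusted p = 5.5e-11). Etv4 fell further there than with ERF wild type, from 24 to 0.57 CPM on average (difference -2.30 ± 0.37, adjusted p = 8.01e-05). For Dusp6 the effects were -2.89 with ERF wild type and -2.22 in the line labelled ERF knockout, and the difference, 0.67 ± 0.29, did not pass (adjusted p = 0.0979). In the stress response list 12 of 20 genes differed, each upward, and the median change in the line labelled ERF knockout was 0.02. For the endoderm list the median there was -1.71, and 9 of its 15 genes fell while 1 rose.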

How the data were processed

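Libraries of ribosomal RNA-depleted total RNA were read in pairs with strand kept, per the labels. The submitters' processing notes name bcl2fastq 2.20.0, fastp 0.20.0, Salmon and build mm10. The deposited estimated counts per gene, summed by the authors, and the deposited TPM of each library were used; the authors' matrix equals the rounded estimates. The test was edgeR's quasi-likelihood fit (edgeR 4.0.16, R 4.3.3; robust, TMM scaling, filterByExpr, 23 libraries, 1 coefficient per group), with Benjamini-Hochberg adjustment over 20372 genes. Calls needed both an adjusted p below 0.05 and 2-fold or more. DESeq2 1.42.0 and other settings were alternatives.

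Named genes were the 12 largest rises and falls by fold and 10 each way by TPM among calls without overlap between the groups and a mean of 5 CPM or more in the higher one (predicted genes passed over), list members and 28 genes followed in every library. Members and lists were chosen with earlier results of these data known. Another gene targeted in these cells and some genes that the rule names are left unreported. Whether replicate numbers pair the libraries was not settled, and the reported fit does not pair them. Same-numbered deviations correlated at -0.04 and 0.21 over 10419 genes. With 2 RAS-present libraries in FA these deviations mirror each other, so both values are not independent checks. Replicate 1 was also the library with raised chromosome 8 in each group with ERF wild type.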

Additional observations from a re-analysis of the deposited data

Results flagged for a closer look

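The effect of RAS deletion differed between FA and 2iL, by edgeR's test of the difference itself, for 19 of the 28 genes followed in every library (adjusted p from 1.9e-11 to 0.0224). The log2 difference, FA minus 2iL, was below 0 for Spry4 (-4.99), Spry2 (-4.15), Dusp6 (-2.9), Etv4 (-2.64), Egr1 (-2.68), Phlda1 (-1.28), Pou3f1 (-2.49), Dnmt3b (-1.9) and Lef1 (-2.79). It was above 0 for Klf4 (3.5), Nanog (2.36), Esrrb (2.94), Prdm14 (5.17), Tfcp2l1 (2.7), Zfp42 (3.56), Dppa3 (1.56), Tbx3 (2.27), Otx2 (1.52) and Sox2 (1.7). Etv5 did not pass in either difference.

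The effect also differed between the FA libraries labelled ERF knockout and those with ERF wild type for 17 of the 28 genes (adjusted p from 2.91e-10 to 0.0129). The log2 difference, labelled ERF knockout minus wild type, was below 0 for Etv4 (-2.3), Klf4 (-3.67), Nanog (-1.55), Esrrb (-2.57), Prdm14 (-3.84), Tfcp2l1 (-3.23), Zfp42 (-3.06), Dppa3 (-3.91), Tbx3 (-4.55) and Sox2 (-1.23). It was above 0 for Spry4 (2.11), Spry2 (3.36), Pou3f1 (3.26), Fgf5 (3.14), Dnmt3b (2.09), Dnmt3l (1.27) and Lef1 (2.84). For Otx2, Dusp6, Egr1 and Phlda1 this second difference did not pass, and for Fgf5 and Dnmt3l the first did not.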

How the results depend on the processing

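Counts of calls kept within 1.5 times of the reported ones under every alternative but 1: without the 2-fold minimum there were 8420 calls for RAS deletion in FA, 4988 for the difference from 2iL and 5704 for the difference between the ERF labels. Leaving out single libraries gave 3099 (without RAS-present replicate 2) to 3572 calls, 2211 to 2480, and 2397 to 3128. Fitting only the groups compared gave 2753, 1990 and 2552 calls, and a replicate block added to these fits gave 2926, 2124 and 2729. Whether the replicate numbers pair the libraries was not settled. Nupr1, Atf3, Otx2, Lef1, Ccnd1 and Ccnd2 were among the genes not called with that block. DESeq2 gave 3344, 2360 and 2689 calls, and 3 genes had no adjusted p. Scaling by library totals alone gave 3554 calls, 57.6% of them higher against 51.7%.

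Leaving out the 4 replicate 1 libraries that had raised chromosome 8, and leaving out chromosome 8 genes, were chosen after seeing the data. The first keeps 1 RAS-present library in FA, so a call lost there cannot be told apart from the effect of a smaller group. The same holds where either RAS-present library is left out. With chromosome 8 genes left out there were 3365 calls. Of 221 called list and named genes, 155 were called under every alternative that tested them (chromosome 8 genes have no value where that chromosome is left out) and 66 were lost under at least 1, among them Asns, Ccnd1, Ccnd2 and Otx2. The germline gene Taf7l (log2 change -1.19) was at 0.07 without RAS-present replicate 2 and ran down to -1.86 without RAS-present replicate 1; the cause was not tested. With 2 RAS-present libraries, lists in which these differ (among them stress response, endoderm, germline and 2-cell-like) are uncertain in size. The germline median also changed sign without RAS-present replicate 2.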

Other observations

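Both sets here were put together after the values were seen, and are given as values; of all tested genes 8.93% rose and 8.33% fell. Of 30 tested imprinted genes, which are expressed from 1 parental copy, 3 rose and 8 fell. The 4 neighbours on chromosome 6 fell: Peg10 as given above, Sgce at 14.97 and 20.5 CPM with RAS present and 5.74, 4.98 and 3.49 CPM with RAS deleted (log2 change -1.91 ± 0.27 (SE), adjusted p = 7.32e-06), Ppp1r9a at 81.1 and 73.2 CPM with RAS present and 25.9, 25.5 and 23.8 CPM with RAS deleted (log2 change -1.62 ± 0.12 (SE), adjusted p = 2.36e-10) and Asb4, which was under 2 CPM throughout (log2 change -4.09 ± 0.55 (SE), adjusted p = 3.82e-06). They lie between positions 4674350 and 5433022 of that chromosome in build GRCm38.p6. In 2iL with RAS present Peg10 averaged 30.9 CPM, below all RAS-deleted libraries in FA. Phlda2, an imprinted gene that limits placental growth, was at 14.97 and 14.3 CPM with RAS present and 0.745, 0.932 and 1.44 CPM with RAS deleted (log2 change -3.79 ± 0.25 (SE), adjusted p = 4.29e-11). Plagl1, a zinc finger factor, rose, at 5.97 and 6.06 CPM with RAS present and 119, 144 and 182 CPM with RAS deleted (log2 change 4.63 ± 0.44 (SE), adjusted p = 3.81e-07), and averaged 89.7 CPM in 2iL. H19, a long non-coding RNA, was at 126 and 98.2 CPM with RAS present and 69.3, 156 and 229 CPM with RAS deleted, lowest in RAS-deleted replicate 1 and with overlapping groups.

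Of 32 tested enzymes of glutathione and peroxide metabolism, 8 rose and 2 fell. Besides Gpx4, Gsta4 and Prdx6, the rises were Gss, glutathione synthetase, at 13.3 and 13.4 CPM with RAS present and 55.95, 49.9 and 45 CPM with RAS deleted (log2 change 1.91 ± 0.14 (SE), adjusted p = 1.57e-10), Sod2, the mitochondrial superoxide dismutase, at 42.9 and 47.4 CPM with RAS present and 102, 94.9 and 91.7 CPM with RAS deleted (log2 change 1.09 ± 0.08 (SE), adjusted p = 3.28e-10), Gpx1 (1.01), Gpx3 (1.17) and Gstm1 (1.19). Gstt1 (-2.42) and Mgst1 (-4.22) fell and were under 4 CPM in all 5 libraries. In 2iL with RAS present Gss averaged 54.0 CPM and Sod2 averaged 160.1 CPM.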
